A study of Homo sapiens with 16 samples.

Results

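The HOX genes of the 4 human HOX clusters were examined in the open chromatin of sorted progenitors and neurons from brain organoids. Members were all RefSeq protein-coding genes whose symbol is HOXA, HOXB, HOXC or HOXD followed directly by a digit. There were 39 such genes among 19974 protein-coding genes on chromosomes 1 to 22 and X: 11 in HOXA, 10 in HOXB, 9 in HOXC and 9 in HOXD. The read-through gene HOXA10-HOXA9 was not counted as a member.

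The organoids, of telencephalic and mainly dorsal identity per the series' description, came from human embryonic stem cells of the established line H9, with genotype given as WT. All groups share 1 dual reporter line. EGFP follows SOX2 through a P2A peptide on 1 allele of this progenitor gene, and dTomato at the AAVS1 safe harbor is driven by the human SYN1 promoter, which is active in neurons. Nuclei of SOX2::EGFP+ cells (progenitors) and hSyn1::dtomato+ cells (neurons) were profiled at days 40, 60, 90 and 120. The assay was ATAC-seq, which inserts adapters into open DNA with a transposase. There were 2 libraries for each of the 8 groups, 16 in all. Nothing in the labels ties the replicates to separate organoid cultures. The p-values therefore reflect replicate spread that could be technical.

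HOX proteins are homeodomain transcription factors that specify position along the head-to-tail axis. Their order on the chromosome follows the order of their expression domains: paralog groups with low numbers act in the hindbrain, and those with high numbers act in the posterior trunk, limbs and genital tract. In the embryonic forebrain HOX genes are normally silent, and their clusters are a classic target of Polycomb repression. Retinoic acid and CDX factors open them in posterior tissue, and the TALE proteins PBX, MEIS and PKNOX bind DNA with them.

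Each library was represented by its own list of peaks, with no read counts, so depth is unknown and a region without a peak is not shown to be closed. The lists held 68364 to 138554 peaks. The least coverage was 36.9 Mb (progenitor day 120 replicate 2) and the most 104 Mb (neuron day 40 replicate 1). The former library stands apart in the results below, and values without it are given where they matter. The SOX2 window (gene plus 1 kb on either side) had a peak in all 16 libraries and did not differ (log2 difference -0.10 ± 0.16 (SE), limma adjusted p = 0.723). The SYN1 window, covered to 1.96% on average, was more covered in progenitors (0.52 ± 0.17, limma adjusted p = 0.0467), against the label. The reporter's SYN1 promoter sits at AAVS1, outside this window. MYT1L and RBFOX3, also neuronal genes, were more covered in neurons (-0.54 ± 0.08, adjusted p = 0.000606, and -0.67 ± 0.10, adjusted p = 0.000784). Of 8 progenitor markers 2 were higher in progenitors and 0 in neurons, and of 9 neuron markers 1 was higher in progenitors and 3 in neurons. Over all features 19.5% were called in either direction.

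The sequences before the starts of some HOX genes are shown with the number of libraries that had a peak over the promoter. The RefSeq promoter table (GRCh38.p14) holds 250 bases before and 50 bases after the start for 20 of the 39 members. The other 19 were not analysed here for promoter sequence. HOXC4 and HOXC5 share 1 window in the table. Printed here are the 250 bases before the start, on the strand of the gene, for 3 members whose promoter often had a peak and 2 where no library had one; capitals mark the CG dinucleotides.

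HOXD1, chr2:176188418-176188667, plus strand, peak in 8 progenitor and 6 neuron libraries: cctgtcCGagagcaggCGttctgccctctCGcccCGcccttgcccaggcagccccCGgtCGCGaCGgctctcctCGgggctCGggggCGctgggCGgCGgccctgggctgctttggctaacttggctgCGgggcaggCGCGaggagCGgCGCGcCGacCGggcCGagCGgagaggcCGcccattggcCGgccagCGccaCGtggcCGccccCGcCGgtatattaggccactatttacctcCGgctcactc
HOXA4, chr7:27130758-27131007, minus strand, peak in 7 progenitor and 8 neuron libraries: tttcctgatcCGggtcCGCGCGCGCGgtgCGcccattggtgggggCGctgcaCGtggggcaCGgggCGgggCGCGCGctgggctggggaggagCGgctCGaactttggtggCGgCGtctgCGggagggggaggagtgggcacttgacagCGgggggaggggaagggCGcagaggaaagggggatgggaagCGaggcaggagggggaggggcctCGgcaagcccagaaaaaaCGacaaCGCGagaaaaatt
HOXA7, chr7:27156676-27156925, minus strand, peak in 3 progenitor and 7 neuron libraries: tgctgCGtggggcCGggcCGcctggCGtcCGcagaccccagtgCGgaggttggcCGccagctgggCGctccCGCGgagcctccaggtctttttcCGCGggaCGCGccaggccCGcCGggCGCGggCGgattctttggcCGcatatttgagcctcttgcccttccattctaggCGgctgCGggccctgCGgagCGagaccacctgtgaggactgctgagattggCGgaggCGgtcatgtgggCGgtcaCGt
HOXA2, chr7:27102684-27102933, minus strand, no peak in any of the 16 libraries: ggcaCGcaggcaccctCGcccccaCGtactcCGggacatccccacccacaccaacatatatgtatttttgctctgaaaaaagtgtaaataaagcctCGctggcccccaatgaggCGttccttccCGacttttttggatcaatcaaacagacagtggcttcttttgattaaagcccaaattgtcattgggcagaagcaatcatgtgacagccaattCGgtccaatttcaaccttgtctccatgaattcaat
HOXA9, chr7:27165538-27165787, minus strand, no peak in any of the 16 libraries: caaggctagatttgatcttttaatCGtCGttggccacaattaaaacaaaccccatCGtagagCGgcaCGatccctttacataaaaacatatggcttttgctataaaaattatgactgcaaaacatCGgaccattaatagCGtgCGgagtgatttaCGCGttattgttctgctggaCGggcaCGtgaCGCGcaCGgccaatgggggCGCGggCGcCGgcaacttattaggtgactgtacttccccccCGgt

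The 3 promoters with peaks held 31 (HOXD1), 26 (HOXA4) and 28 (HOXA7) CG dinucleotides in these 250 bases. HOXA2 held 8, with 47.2% GC, and HOXA9 held 20, with 48.8% GC. CG content alone did not sort the promoters: HOXA6, with 27, had a peak in 1 library and HOXD4, with 4, had one in 8. Over the 20 members the median was 20.5 (range 4 to 40), against 17 over all 15813 promoters, and the median GC content was 59% against 62.4%. The letters CCAAT, searched on both strands, were in the windows of 17 of the 20 members (85%), against 34.4% of all promoters. The shared window of HOXC4 and HOXC5 was counted for each gene, here and in the medians. TATAAA was in 4 (20% against 9.25%) and GGGCGG in 10 (50% against 56%). TGATNNAT, a pattern read by HOX and PBX together, was in 3 (HOXD11, HOXA2 and HOXB1; 15% against 4.4%), and AGGTCA, a core bound by nuclear receptors, was in 0 against 10.3%. These matches describe letters in the window and are not binding sites.

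The clusters carried more peak coverage than the genome in every library when the lists were used as deposited. The percent of bases covered in the 4 clusters together was 9.67 ± 3.58 (SD, n = 8, range 2.14 to 13.6) in progenitors and 8.47 ± 3.23 (n = 8, range 4.44 to 14.1) in neurons. Over chromosomes 1 to 22 and X it was 2.74 ± 0.678 and 2.61 ± 0.622. The ratio of the HOX to the genome value was above 1 in 16 of 16 libraries, with a mean of 3.27 ± 0.689 (range 1.72 to 4.26). The lowest ratio belonged to progenitor day 120 replicate 2, the shortest list.

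HOX peaks were of low enrichment within their lists. Within each library the authors' fold enrichment ranks the peaks, and the median HOX peak stood at percentile 17.5 to 38.3 of its own list. Its median fold was below that of the whole list in 16 of 16 libraries, for example 2.65 against 3.22 in progenitor day 40 replicate 1 and 3.29 against 4.36 in neuron day 120 replicate 1. Between 0 and 9 HOX peaks per library, or 0% to 9.78%, were among the top 25% of the list by fold. For 21 forebrain homeobox genes (such as EMX1, DLX1 and OTX1) this share was 7.22% to 17.8%, above the HOX share in 16 of 16 libraries. The median forebrain homeobox peak also stood low, at percentile 25.4 to 34.6, above the HOX median in 13 of 16 libraries. HOX peaks were of ordinary width, at a median percentile of 37 to 56.7.

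When each list was reduced to its strongest peaks by q-value, until all covered the same 36.9 Mb, the HOX excess was gone on average. The ratio to the genome was then 0.925 ± 0.437 (n = 16, range 0.128 to 1.74), with 8 of 16 libraries above 1. It was 1.03 ± 0.334 in progenitors and 0.82 ± 0.521 in neurons. Without progenitor day 120 replicate 2, whose whole list is the reference length and whose ratio therefore stayed at 1.72, the mean of the other 15 was 0.872 ± 0.395. Between 1 and 16 members kept any coverage, and the library with 16 was that same list. When peaks of at least 2 in −log10 q were kept instead, the HOX-to-genome ratio was 2.76, so the excess was not lost under that limit. The number of reads behind each list, which sets how weak a peak can be and still be called, is unknown, and its part in the result was not tested.

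**Figure D1:**
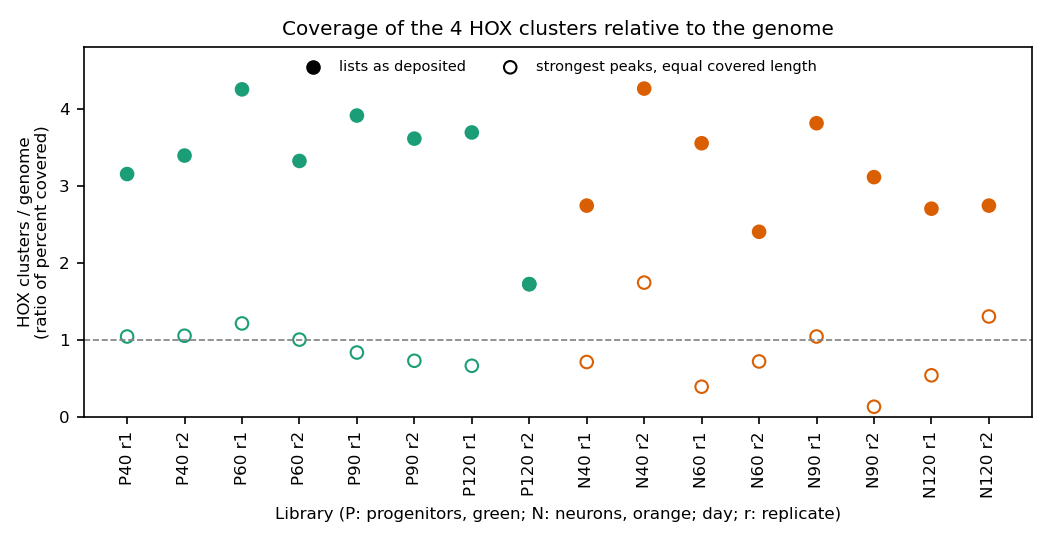
Ratio of the percent of bases covered in the 4 HOX clusters to that in chromosomes 1 to 22 and X, for each of the 16 libraries; filled points use the lists as deposited and open points the strongest peaks of equal covered length, with a dashed line at 1. Filled points lie between 1.72 and 4.26 and open points between 0.128 and 1.74, and the 2 coincide in progenitor day 120 replicate 2, whose list sets the length.

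Each cluster was on average denser in peaks than its surroundings. HOXA (chr7:27091993-27201091, hg38, 109.1 kb) was covered to 12% in progenitors and 10.4% in neurons, against 4.13% and 3.17% in the 100 kb on either side. HOXD (chr2:176086487-176191907, 105.4 kb) was the most covered, at 16.5% and 13.3%, against 3.63% and 3.28%. HOXC (chr12:53937831-54057030, 119.2 kb) had 9.02% and 8.53%, against 2.88% and 3.08%. HOXB (chr17:48527526-48729750, 202.2 kb) had 5.2% and 4.89%, against 1.96% and 2.2%, and it holds the long gap between HOXB9 and HOXB13. The cluster was above its flanks in all 16 libraries for HOXA, HOXC and HOXD and in 15 for HOXB.

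By group, the 4 clusters together had 44.4 and 50.8 kb covered in the 2 progenitor libraries of day 40, 67.1 and 46.6 kb at day 60, 72.8 and 64.5 kb at day 90, and 56.8 and 11.5 kb at day 120. In neurons the values were 51.7 and 75.5 kb, 53.6 and 23.8 kb, 55.1 and 45.1 kb, and 30.7 and 27.6 kb on the same days. The 2 libraries of a group could differ widely, most of all in progenitors of day 120, and the populations overlapped.

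No cluster as a whole passed the test between populations. Covered bases were scaled to the mean total of the libraries and compared as log2(scaled bases + 200) with limma over 17607 features. HOXD had 17.4 ± 5.91 kb (SD, n = 8) in progenitors and 14 ± 4.86 kb in neurons, a log2 difference of 0.22 ± 0.11 (SE; 95% interval -0.03 to 0.46, limma adjusted p = 0.206). HOXA had 13.1 ± 5.09 and 11.3 ± 4.29 kb (0.08 ± 0.15, interval -0.23 to 0.40, adjusted p = 0.747). HOXB had 10.5 ± 4.13 and 9.88 ± 4.28 kb (0.00 ± 0.23, interval -0.50 to 0.51, adjusted p = 0.994), and HOXC 10.8 ± 4.79 and 10.2 ± 4.57 kb (-0.05 ± 0.22, interval -0.53 to 0.43, adjusted p = 0.904). Without progenitor day 120 replicate 2 the HOXD difference was 0.31 ± 0.10 and passed (adjusted p = 0.0403).

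**Figure D2:**
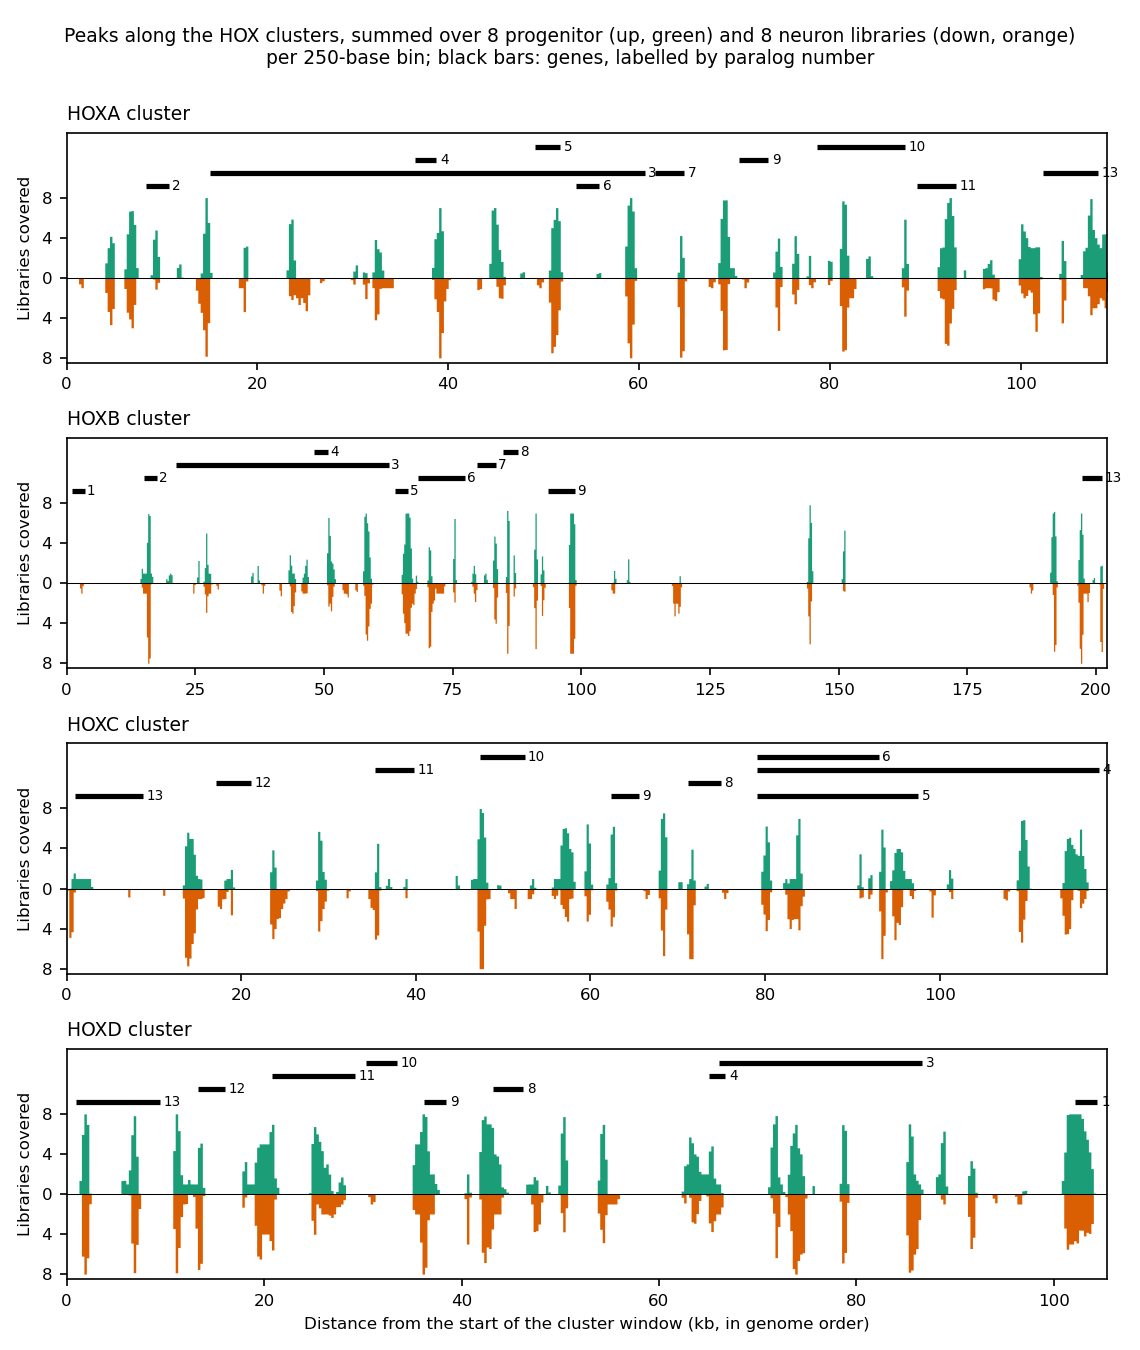
Peak coverage along each cluster in bins of 250 bases, against distance from the start of the cluster window in kb; green bars above the axis sum the covered fraction over 8 progenitor libraries, orange bars below it over 8 neuron libraries, and black bars are genes labelled with their paralog number. Peaks recur at the same places in both populations, and the right end of HOXD, at HOXD1, is covered in all 8 progenitor libraries.

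Several merged regions in the clusters had a peak in every library. Merging the peaks of all libraries gave 139 HOX regions of 321056. Overlapping peaks were chained, so peaks of different libraries in a region need not share a base. A peak was found in all 16 libraries in 13 of them (9.35%, against 7.72% of all regions) and in a single library in 35 (25.2%, against 32.7%). HOXD held 6 of the 13. One, chr2:176187368-176190507, covers HOXD1, MIR7704 and part of the long noncoding RNA HAGLR. The others lie at HOXD13 (chr2:176087728-176088868 and chr2:176092027-176093897), HOXD12 (chr2:176097330-176100330), HOXD9 (chr2:176121515-176124098) and HOXD8 (chr2:176128293-176130575). The HOXD12 region reaches beyond the gene window, in which only 6 progenitor and 8 neuron libraries had a peak.

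HOXA held 4 of them. These were chr7:27105478-27107060 at the end of HOXA3, chr7:27150499-27151650 in HOXA3 and HOXA-AS3, chr7:27160341-27162048 between genes and 390 bases from HOXA9, and chr7:27173079-27174742 in HOXA10. HOXB held 2, at HOXB2 (chr17:48541942-48544195) and at PRAC2, 4937 bases from HOXB13 (chr17:48718648-48719826). HOXC held 1, chr12:53984101-53986346, at HOXC10 and HOXC-AS3.

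The widest region of each cluster had a peak in many libraries of both kinds. HOXD had chr2:176148904-176152933 (4030 bases) over MIR10B, HOXD4 and HOXD3, with a peak in 7 progenitor and 7 neuron libraries. HOXC had chr12:54051612-54054680 in HOXC4 (7 and 6), HOXB chr17:48592646-48595570 at HOXB5 and HOXB-AS3 (7 and 7), and HOXA chr7:27198440-27201262 at HOXA13 and HOTTIP (8 and 5).

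No HOX region was called different in presence between populations. Of 77 HOX regions tested by Fisher's exact test (two-sided, 8 against 8 libraries, adjusted over 182575 regions), 0 passed, against 4.33% of all regions tested. At an unadjusted p under 0.05 there were 2 more often present in progenitors and 1 in neurons. The first, chr2:176174501-176175585 in HAGLR, had a peak in 7 progenitor libraries and 1 neuron library (Fisher's exact p = 0.0101, adjusted p = 0.103). The second, chr17:48678163-48678776 in LINC02086, between HOXB9 and HOXB13, also had 7 and 1 (exact p = 0.0101, adjusted p = 0.103). The third, chr12:53938039-53940634 at HOXC13 and HOXC13-AS, had 2 and 7 (exact p = 0.0406, adjusted p = 0.223). These 3 were chosen after their values were seen. Leaving out progenitor day 120 replicate 2, or neuron day 40 replicate 2, brought 2 HOX regions past the threshold, both more often present in progenitors. That was 2 of 70 HOX regions tested, against 8711 of all 177491 called in that direction, and 2 of 74, against 6943 of all 168038.

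In every library a smaller share of the 20 member promoters than of all promoters had a peak. Per library 2 to 9 of the 20 member promoters (10% to 45%) had a peak, against 57.1% to 69.4% of all 15813 promoters. A lower HOX share was not general when a peak at either end of the gene was counted for all 39 members. The HOX share was then above that of all genes in most libraries and below it in the others. In progenitor day 120 replicate 1 it was 32 of 39 members, against 70.8% of all genes. In progenitor day 120 replicate 2 it was 12 of 39, against 62.9%. A peak in all 16 libraries was found at 0 of 20, against 52.8% of all promoters and 9 of 16 promoters of forebrain homeobox genes. No library had one at 9 of 20 (45%), against 24.9% of all and 1 of 16 forebrain homeobox promoters. The 9 are HOXA2, HOXA3, HOXA9, HOXA11, HOXB1, HOXC4, HOXC5, HOXD3 and HOXD10, with the shared window of HOXC4 and HOXC5 counted for each gene.

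At the other 11 the counts ranged widely. HOXA4 had a peak in 7 progenitor and 8 neuron libraries, and HOXD1 and HOXD12 each in 14 (8 and 6, and 6 and 8). HOXD11 and HOXD8 each had 7 and 6, HOXA7 3 and 7, HOXA10 6 and 4, HOXD4 5 and 3, and HOXA13 4 and 3. HOXA6 and HOXD13 had a peak in 1 progenitor library each. Of the 8 member promoters that could be tested, 0 passed Fisher's exact test between the populations, against 0.781% of all promoters tested, and 0 had an unadjusted p under 0.05.

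Several promoters with a peak in no library, or in 1 library as at HOXD13, had one close by. At HOXA11 the nearest peak was a median of 258 bases from the start and within 1 kb in 15 of 16 libraries. At HOXD13 the median was 330 bases (16 of 16 libraries within 1 kb) and at HOXD3 704 bases (15 of 16). HOXB1 stood at the other end, with the nearest peak a median of 12079 bases away. The start is that of the RefSeq table, and other starts of these genes were not analysed here.

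The clusters also hold microRNA genes. MIR7704, inside the merged HOXD1 region, had a peak over its hairpin in 8 progenitor and 5 neuron libraries, MIR3185 beside HOXB13 in 7 and 8, MIR10B in 4 and 2, and MIR615 in 1 and 0. MIR10A, MIR196A1, MIR196A2 and MIR196B had none in any library. The mature miR-196 sequences, which target HOX transcripts, are shown from RefSeq with the seed (bases 2 to 8) in capitals because the hairpins lie in 3 different clusters and share it.

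hsa-miR-196a-5p, from MIR196A1 in HOXB and MIR196A2 in HOXC: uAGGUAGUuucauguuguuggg
hsa-miR-196b-5p, from MIR196B in HOXA: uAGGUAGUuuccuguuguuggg

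Coverage of single HOX genes was measured in the gene from start to end plus 1 kb on either side. The median member had 10.1% of its window covered, against 4.63% over all protein-coding genes. A peak was found in all 16 libraries for 11 members (HOXA3, HOXA10, HOXA13, HOXB2, HOXC4, HOXC10, HOXD1, HOXD3, HOXD8, HOXD9 and HOXD13), in 6 to 15 libraries for 25, and in 1 library for HOXA6, HOXB1 and HOXD10. Those 3 fell below the filter (200 covered bases or more in 2 or more libraries), which left 36 for the tests. Long RefSeq models overlap their neighbours: HOXA3 runs across HOXA4, HOXA5 and HOXA6, HOXB3 across HOXB4, HOXC4 across HOXC5 and HOXC6, and HOXD3 begins inside HOXD4, so these windows share peaks.

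**Figure D3:**
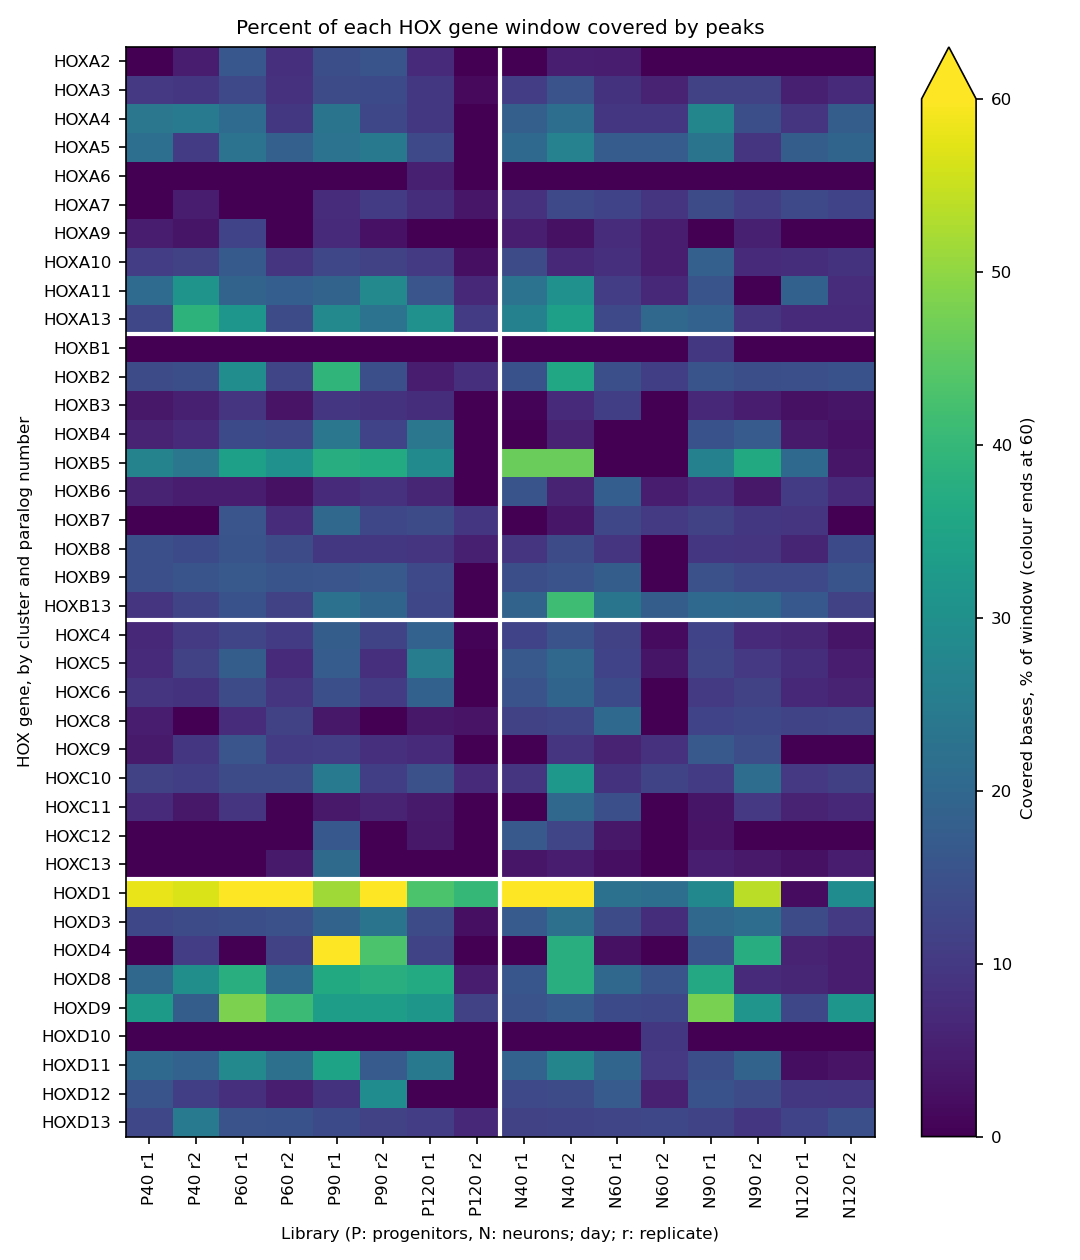
Percent of each HOX gene window covered by peaks, for HOX genes (rows, by cluster and paralog number) in 16 libraries (columns, 8 progenitor then 8 neuron), with the colour scale ending at 60%. HOXD1 is the brightest row, HOXA6, HOXB1 and HOXD10 are dark in all but 1 library, and the column of progenitor day 120 replicate 2 is dark in most genes.

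By position along the axis, the 8 anterior members (paralogs 1 to 3) had a median of 9% covered, the 15 central members (4 to 8) 10.1% and the 16 posterior members (9 to 13) 12%. By cluster the medians were 9.79% in HOXA, 9.57% in HOXB, 8.1% in HOXC and 15.1% in HOXD. The sets by position overlapped widely, with members from 0.6% for HOXB1 to 45.9% for HOXD1 within the anterior set, from 0.337% for HOXA6 to 24.8% for HOXB5 within the central one, and from 0.609% for HOXD10 to 27.1% for HOXD9 within the posterior one.

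HOXD1, the paralog group 1 gene at the anterior end of its cluster, was the most covered member. Its 4.24 kb window held 1692, 2430.5 and 2840 covered bases (lowest, median and highest of 8 libraries) in progenitors and 82, 1213 and 2823 in neurons. All progenitor libraries were high, while neuron libraries were high at day 40 (2729 and 2823 bases), low at day 60 (946 and 918), mixed at day 90 (1192 and 2277) and low again at day 120 (82 and 1234). The groups overlapped, and the log2 difference of 0.83 ± 0.32 did not pass (95% interval 0.15 to 1.51, limma adjusted p = 0.087). With peaks of at least 2 in −log10 q it did pass (1.7 ± 0.46, limma adjusted p = 0.0228), and without neuron day 120 replicate 2 it was 1.17 ± 0.19. Across the 10 alternatives with all libraries in which HOXD1 was tested, the difference ran from -0.28 to 1.7, so its sign was not fixed.

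Of the HOX genes of the trunk in HOXD, HOXD9 had 486, 1397 and 2029 bases in progenitors and 548, 690 and 2023 in neurons. HOXD8, its neighbour, had 227, 1651 and 1871 against 244, 793.5 and 1881. Progenitor medians were higher in both, but the ranges nearly coincided. The log2 differences were 0.36 ± 0.20 (adjusted p = 0.233) and 0.55 ± 0.29 (adjusted p = 0.213). HOXD11, a limb and kidney patterning gene, had 0, 2224 and 3606 bases in progenitors and 227, 1721.5 and 2854 in neurons (0.29 ± 0.40, adjusted p = 0.673). Without progenitor day 120 replicate 2, the library with 0, HOXD11 was higher in progenitors (0.75 ± 0.17, adjusted p = 0.00831). Without the other library of that day, replicate 1, its difference turned to -0.17 (adjusted p = 0.516).

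HOXA13, the most posterior HOXA gene and a regulator of digits and the genital tract, had 813, 1974 and 2995 bases in progenitors and 561, 1238 and 2609 in neurons (0.42 ± 0.24, adjusted p = 0.255). HOXA5, known for its role in the cervical skeleton and lung, had 0, 937 and 1124 against 434, 861 and 1234 (-0.45 ± 0.27, adjusted p = 0.285), and -0.69 ± 0.20 without progenitor day 120 replicate 1 (adjusted p = 0.0277). HOXC10, a lumbar gene and the most covered of HOXC, had 532, 910 and 1750 against 625, 777.5 and 2283 (-0.07 ± 0.24, adjusted p = 0.882). HOXB5, the most covered of HOXB, had 0, 1335 and 1692 against 0, 1060 and 2094 (0.48 ± 0.35, limma adjusted p = 0.377). Its difference was 0.13 to 0.85 without single libraries. In these genes the 2 populations overlapped throughout.

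Between progenitors and neurons over the 4 days, 3 of 36 members passed: HOXA2 was more covered in progenitors, and HOXA7 and HOXB13 in neurons. That is 8.33% of the members tested, against 19.5% of all features. Differences were positive for 18 members and negative for 18, with a median of -0.01 (-0.06 over all genes). The members' median standard error was 0.289, against 0.149 over all genes, so the same difference was harder to call in a HOX gene. At an unadjusted p under 0.05 there were 7 members, and 5668 of all 17607 features. With peaks of at least 2 in −log10 q 9 members passed, against 19.2% of all features. Without progenitor day 120 replicate 1 it was 7, against 24.4%, and without replicate 2 it was 6, against 24.2%.

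**Figure D4:**
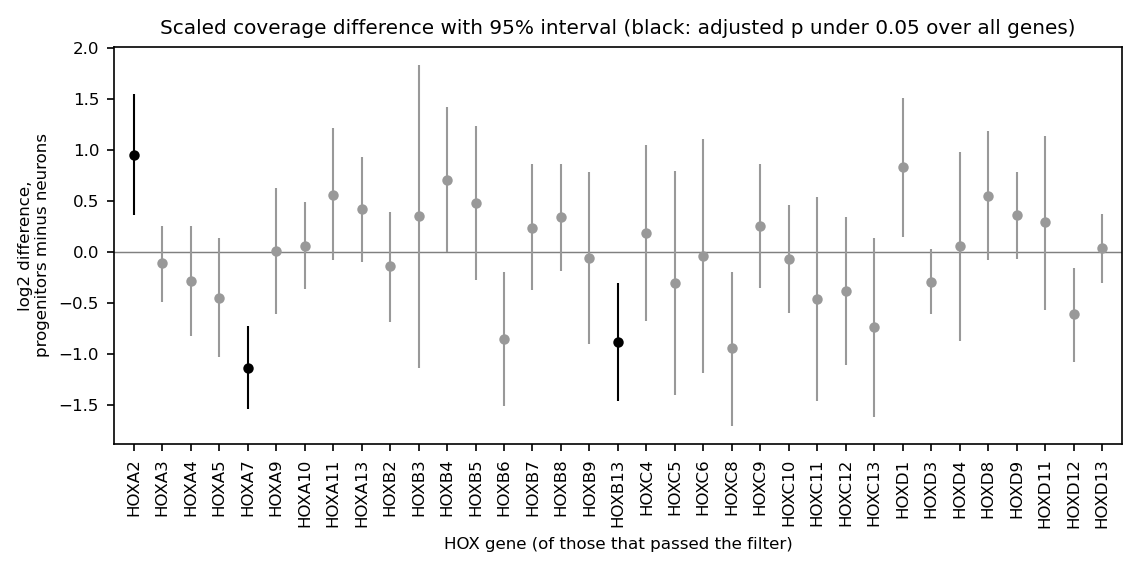
Log2 difference in scaled coverage, progenitors minus neurons, for HOX genes that passed the filter, with 95% intervals; black marks an adjusted p under 0.05 over all genes. HOXA7 (-1.13), HOXA2 (0.95) and HOXB13 (-0.88) are black, and most other intervals include 0.

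HOXA7, a gene of the thoracic segments, showed the clearest difference. It had 0, 203 and 526 covered bases (lowest, median and highest) in progenitors and 421, 596 and 678 in neurons. Each library with coverage had a single peak, in the region chr7:27156099-27156776 that reaches over the start of the gene. Every neuron library had this peak, and 3 of 8 progenitor libraries, 1 of day 40 and both of day 60, did not, with a narrow overlap between the groups. Mean coverage of the window was 4.28% against 11.6%, and the log2 difference was -1.13 ± 0.19 (95% interval -1.53 to -0.72, limma adjusted p = 0.00123).

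The HOXA7 call was kept without each of the 16 libraries in turn. It was lost when peaks were counted rather than bases (-0.58, adjusted p = 0.0709) and in lists of equal covered length (-0.66, adjusted p = 0.124). With 20 kb on either side, a window that takes in several other HOX genes, the difference was 0.05 (adjusted p = 0.824).

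HOXA2, the gene of hindbrain rhombomeres and the second pharyngeal arch, was the called member higher in progenitors. It had 0, 342 and 708 bases in progenitors and 0, 0 and 220 in neurons. A peak was found in 6 progenitor libraries, missing in day 40 replicate 1 and day 120 replicate 2, and in 2 neuron libraries, day 40 replicate 2 and day 60 replicate 1. Mean coverage was 8.36% against 1.25%, and the log2 difference 0.95 ± 0.27 (95% interval 0.36 to 1.55, limma adjusted p = 0.0276). The call was lost in 9 of 16 fits that left out 1 library, where the adjusted p reached 0.0758, and the printed promoter of HOXA2 itself had no peak.

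HOXB13, the posterior HOXB gene known from prostate and tail, was covered more in neurons. It had 0, 744 and 1343 bases in progenitors and 698, 1171.5 and 2481 in neurons. The library with 0 was progenitor day 120 replicate 2, the one with 2481 was neuron day 40 replicate 2, and the groups overlapped. The log2 difference was -0.88 ± 0.27 (95% interval -1.46 to -0.30, limma adjusted p = 0.0355). The call was lost in 13 of 16 fits that left out 1 library, among them neuron day 40 replicate 2 (-0.75, adjusted p = 0.0863), and held without progenitor day 120 replicate 2 (-0.61, adjusted p = 0.0179).

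The next members in order of adjusted p did not pass. HOXD12 had a difference of -0.61 ± 0.21 (adjusted p = 0.0583), HOXB6 -0.85 ± 0.30 (adjusted p = 0.068) and HOXC8 -0.94 ± 0.35 (adjusted p = 0.0776). Among the remaining members the differences ran from -0.73 for HOXC13 to 0.83 for HOXD1.

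**Figure D5:**
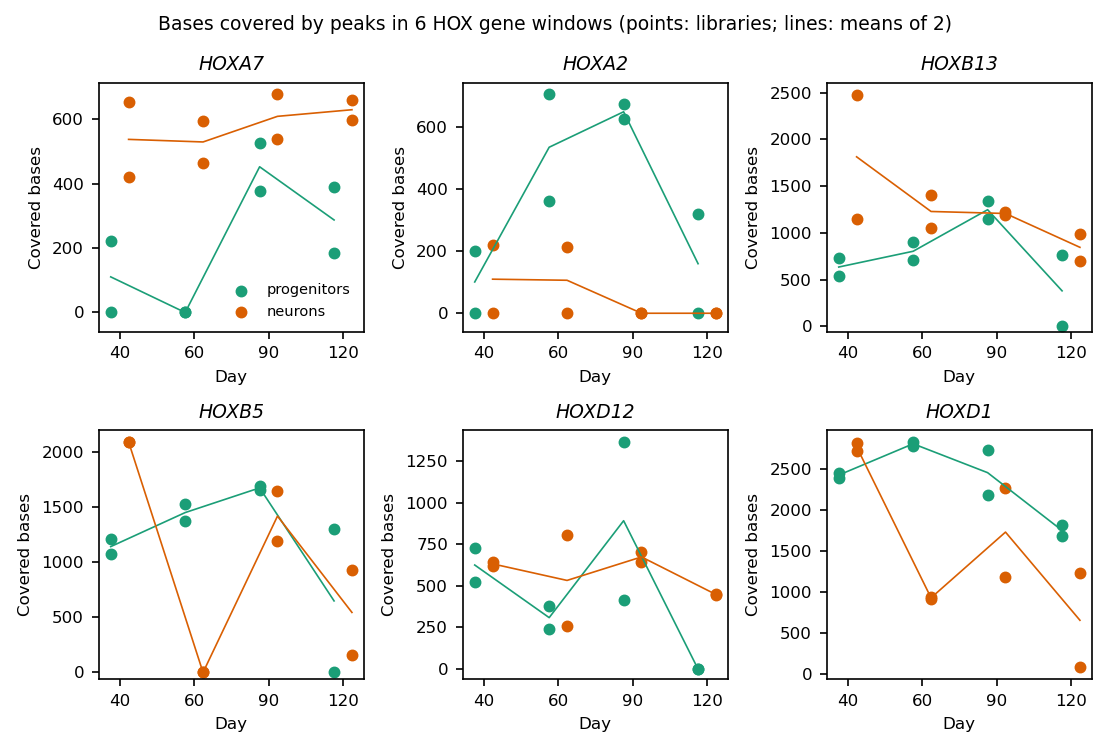
Bases covered by peaks in the windows of 6 HOX genes against day (40, 60, 90 and 120), with 1 point per library, progenitors in green and neurons in orange, and lines through the means of 2 libraries. HOXA7 is at 0 in both progenitor libraries of day 60, HOXB5 at 0 in both neuron libraries of day 60, and HOXD12 at 0 in both progenitor libraries of day 120.

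At single days, with 2 libraries against 2, few members passed. At day 40 it was 0 of 36, against 5.23% of all features, with 3 members and 3246 of all features at an unadjusted p under 0.05. At day 60 it was 2 (5.56%, against 6.05%). HOXB5, a gene of the vagal neural crest, had 1532 and 1371 bases in progenitors and 0 in both neuron libraries (log2 difference 3.0 ± 0.70, limma adjusted p = 0.0262). HOXA7 had 0 in both progenitor libraries and 594 and 464 bases in neurons (-2.03 ± 0.38, limma adjusted p = 0.0100).

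At day 90 it was 0, against 1.86%, with 3 members and 2686 of all features at an unadjusted p under 0.05. At day 120 it was 1 (2.78%, against 8.01%): HOXD12, another limb gene, had 0 in both progenitor libraries and 451 and 445 bases in neurons (-2.0 ± 0.42, adjusted p = 0.0130). Where a group is listed at 0 the size of the difference depends on the 200 bases added before the log. Without progenitor day 120 replicate 1, which leaves the library of low coverage alone in its group and assumes it to vary like the others, 11 members passed, all lower in progenitors, against 14.8% of all features. Without replicate 2 it was 2, HOXD11 higher and HOXD12 lower, against 5.61%. The HOXD12 call was lost without neuron day 120 replicate 1 (adjusted p = 0.0623), where HOXB7 passed, and without replicate 2 (adjusted p = 0.083), where HOXD1 passed. The HOXB5 call was lost without any 1 of the 4 libraries of day 60, with adjusted p from 0.073 to 0.125, and the HOXA7 call at day 60 without 3 of them, where it reached 0.0587.

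Between late (days 90 and 120) and early (days 40 and 60) progenitors, 1 of 36 members passed (2.78%, against 2.77% of all features). HOXA7 rose from 0, 221, 0 and 0 bases to 378, 526, 389 and 185 (log2 difference 1.24 ± 0.27, limma adjusted p = 0.0299), with a small overlap; the call was lost in 5 of 16 fits that left out 1 library, where the adjusted p reached 0.133. It was also lost with a pseudocount of 500 bases (0.67, adjusted p = 0.051), without scaling (1.21, adjusted p = 0.0739), in lists of equal covered length (0.24, adjusted p = 0.829) and at −log10 q of at least 2 (0.49, adjusted p = 0.73), and with 20 kb on either side the difference was -0.14 (adjusted p = 0.746). In neurons it was 0, against 4.62%, with 4 members and 3193 of all features at an unadjusted p under 0.05. For the difference between these changes it was 0, against 0.557%, with 9 members and 2317 of all features at an unadjusted p under 0.05. Without progenitor day 120 replicate 1 the counts were 8 in progenitors (against 9.28% of all features), 2 in neurons (7.29%) and 4 for the difference (4.79%).

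Genes that act with or on the HOX clusters were taken from lists and compared in the same fit, progenitors minus neurons. Over all 17603 genes tested, 1604 were higher in progenitors and 1824 in neurons, and 19.5% of all features passed in either direction. Of 9 TALE cofactors MEIS1 was higher in progenitors (0.51 ± 0.13, limma adjusted p = 0.0132) and PKNOX1 in neurons (-0.54 ± 0.12, adjusted p = 0.00585). Of 16 Polycomb genes, which repress HOX clusters, CBX7 alone passed and was higher in neurons (-0.46 ± 0.12, adjusted p = 0.0208). The catalytic subunit genes EZH2 (0.29 ± 0.15, adjusted p = 0.197) and EZH1 (-0.40 ± 0.14, adjusted p = 0.0633) did not pass. Of 6 trithorax and H3K27 demethylase genes 0 passed in either direction, and of the 5 tested of 6 upstream HOX activators (among them CDX1, CDX2, GDF11 and EGR2) 0 passed. The list medians were 0.05, -0.01, -0.17 and -0.06, against -0.06 over all genes.

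Of 16 retinoic acid genes 4 were higher in progenitors and 2 in neurons, against 19.5% of all features in either direction, with a median of 0.20. Among those higher in progenitors were the receptors RARB (0.88 ± 0.07, limma adjusted p = 9.74e-06) and RXRG (0.77 ± 0.14, adjusted p = 0.00196) and the retinol transporter STRA6 (0.59 ± 0.18, adjusted p = 0.0336). The degrading enzyme CYP26C1 (-0.86 ± 0.21, adjusted p = 0.011) and the binding protein CRABP1 (-0.83 ± 0.27, adjusted p = 0.0464) were higher in neurons. Of 21 forebrain homeobox genes 4 were higher in progenitors (OTX1, OTX2, RAX and CUX1), and their median coverage was 24.9% of the window, against 10.1% for the HOX members. These window sizes differ between lists, so the percentages describe coverage and not the number of peaks.

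Markers of other regions and cell types were read beside the HOX genes, where 19.5% of all features passed in either direction. Of 10 markers of midbrain, hindbrain and spinal cord 0 passed in either direction, and their summed scaled coverage was 14.4 to 32.2 kb in progenitors and 14.1 to 42.3 kb in neurons. That of the 39 HOX windows was 17.8 to 50.9 and 28.9 to 52.4 kb. Some HOX windows overlap, so shared peaks count more than once, and the lists differ in number of genes. Of 9 mesenchyme markers 2 were higher in progenitors and 3 in neurons, with a summed coverage of the list of 10.6 to 15.9 and 9.97 to 16.5 kb. Of these COL3A1 had no peak in the progenitor libraries and one in 6 neuron libraries. Of 5 choroid plexus markers 3 were higher in progenitors, among them TTR, and the summed coverage of the 5 was 2.78 to 4.88 kb in progenitors and 0.247 to 4.68 kb in neurons. Of 4 microglia and blood markers tested of 5, 0 passed. Of 5 pluripotency genes POU5F1, NANOG and ZFP42 had no peak in any library. LIN28A had one in 7 progenitor and 8 neuron libraries and did not pass. DPPA4 had one in 5 and 1, and was higher in progenitors (0.98 ± 0.27, limma adjusted p = 0.0219). The part of other cell types in the HOX values was not tested, and in bulk libraries fewer cells with an open site and fewer open alleles per cell cannot be told apart.

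Over the 16 libraries, the non-member genes whose scaled log2 coverage ran most like the mean of the 4 clusters were CSRP1 (Pearson r = 0.92), KAT2A (0.91), ZFPM1 (0.88), DNPEP (0.88) and CDH15 (0.87). The points share library, depth and list length, so these values are descriptions.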

How the data were processed

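ATAC-seq was run on 16 libraries, 8 of progenitors and 8 of neurons. Peaks and reads were processed, per the submitters' processing notes, with MACS2 2.1.2, SAMtools 1.9, Picard, BWA 0.7.17 and Trim Galore 0.5.0 on build hg38. Whether reads were shifted for Tn5 is not given in the sources used here, nor are other settings. The authors deposited 1 broad peak list per library, called separately. Its columns hold an integer score, a fold ratio over background and −log10 of the p-value and q-value, all as the authors deposited them. There are no counts, so depth is unknown, and it and the number of libraries limit the precision.

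Bases under peaks were summed per window of a RefSeq gene (GRCh38.p14) plus 1 kb on either side and per cluster. They were scaled to the mean total and compared as log2(bases + 200) with limma 3.58.1 in R 4.3.3 (8 group means, trend, Benjamini-Hochberg over 17607 features with at least 200 bases in at least 2 libraries). Contrasts were the populations over the 4 days and at each day, and late minus early days. Merged regions and promoters were compared by two-sided Fisher's exact test over those present in 2 to 14 libraries. The genome's percent covered was taken over the span from first to last peak of each chromosome. Both scripts for these tests were tested on simulated data. Python 3.11.15 was used.

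Values are given for members called between populations, filled up with the most covered members to 10, the top member of each cluster, and members called in another contrast; for regions, those past the threshold, in all 16 libraries, or widest. Some genes are not reported here by name or drawn. The members and lists were chosen with earlier results of these data known. The same replicate number did not mark libraries that deviate together (r by day from -0.0859 to 0.122), so no block was used. Alternatives were the window, pseudocount, scaling, filter, q-value limit, number of peaks, replicate block and leaving out each library. Subtracting the total after the log, and the clusters' ratio in lists of equal length, were added after seeing the data.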

Additional observations from a re-analysis of the deposited data

Results flagged for a closer look

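Of 36 groups of 8 libraries examined for a library far from the rest, 7 had one, where chance alone flags about 1.8. The 36 share libraries and in part the same peaks, so they are not separate and this count is only a rough guide. In 5 of them the low library was progenitor day 120 replicate 2, whose list covered 36.9 Mb of the genome. It had 1.95 kb covered in HOXB, 4.61 kb in HOXD and 11.5 kb in the 4 clusters, a HOX-to-genome ratio of 1.72 and 0 bases at HOXB5. For HOXB13 neuron day 40 replicate 2 was far above the other neuron libraries, with 2481 bases. For HOXC10 progenitor day 90 replicate 1 was far above the other progenitor libraries, with 1750 bases.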

How the results depend on the processing

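Counts of called members were small and moved with the processing. The share of all features called moved too and is given for settings that keep all libraries. Without a library of the day compared, that share mostly fell. Counts of members without single libraries therefore cannot be read as results about HOX genes alone. The cause was not tested except where named. Between populations the 3 calls became 6 with the gene alone as window, 5 with the total subtracted after the log, 9 at −log10 q of at least 2, 5 with a replicate block (HOXB6, -0.85 ± 0.24, limma adjusted p = 0.0381, and HOXD1, 0.83 ± 0.18, adjusted p = 0.0144, were added), and 1 to 7 without single libraries. It was 3 and 4 with pseudocounts of 50 and 500 (against 18.5% and 19.9% of all features) and 4 in lists of equal covered length (23.7%). It was 2 with 20 kb on either side (22.2%), without scaling (9.54%), without a filter (15.4%) or for numbers of peaks (14.9%). For the gene alone, the total after the log, −log10 q of at least 2 and the block, the shares of all features were 20.9%, 19.4%, 19.2% and 18.4%. With 20 kb, in equal lists and for numbers of peaks, none of HOXA7, HOXA2 and HOXB13 was among the calls. The share of all features called at day 40 was 8.69% in equal lists. At day 60 it was 5.54% with 20 kb, 1.23% without scaling and 9.03% in equal lists. It was also 3.96% without a filter, 6.93% at −log10 q of at least 2 and 3.63% for numbers of peaks. At day 90 it was 2.52% with the gene alone and 2.33% at that q. At day 40, 0 became 2 in lists of equal covered length and 0 to 1 without single libraries. At day 60, 2 became 0 with 20 kb on either side, 1 without scaling, 0 in equal lists, 1 without a filter, 1 at the stricter q and 1 for numbers of peaks (0 to 3 without single libraries). At day 90, 0 became 1 with the gene alone and 1 at the stricter q (0 to 1). At day 120, 1 became 3 with the gene alone, 0 with 20 kb, 0 without scaling, 0 with the total after the log, 0 in equal lists, 2 at the stricter q, and 2 with the replicate block, which added HOXD1 (1.81 ± 0.37, adjusted p = 0.0253) (1 to 11 without single libraries). For late against early progenitors, 1 became 2 with the gene alone, 0 with 20 kb, 0 with a pseudocount of 500, 0 without scaling, 2 in equal lists, 0 at the stricter q, 2 for numbers of peaks and 0 with the replicate block (0 to 8). In neurons 0 became 1 with the gene alone, 2 with the total after the log, 1 in equal lists and 1 at the stricter q (0 to 2), and for the difference 0 became 1 with the gene alone (0 to 4). A single call between populations was left without the progenitor libraries day 40 replicate 2 or day 60 replicate 1, or without the neuron libraries day 90 replicate 2 or day 120 replicate 1. At day 60, 0 were left without either progenitor library of that day or without its neuron replicate 2. Called clusters were 0 under all 11 alternatives and 0 to 1 without single libraries. Called HOX regions were 2 of 74 at the stricter q and 0 to 2 without single libraries. At the stricter q both were more often present in progenitors, as were 5592 of all 151647 regions tested. The replicate block moved no other limma count of called HOX members or clusters by more than 1.5 times. Over all features the day 90 calls fell from 328 to 63. Those for the difference between the late-minus-early changes fell from 98 to 0, so the block says nothing on HOX members there. With the block, the test of regions and promoters called 0 in all, against 7900 and 19, so it says nothing on the HOX ones. At day 120 the share of all features called was 8.79% with the gene alone, 10.2% with 20 kb and 1.12% without scaling. It was 6.51% with the total after the log, 7.24% in equal lists, 7.37% at the stricter q and 6.59% with the block. For late against early progenitors it was 2.9% with the gene alone, 3.55% with 20 kb, 2.77% with a pseudocount of 500 and 0.54% without scaling. It was 5.77% in equal lists, 2.79% at the stricter q, 1.75% for numbers of peaks and 1.4% with the block.

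HOXA7 reversed with 20 kb on either side between populations (0.05), at day 60 (0.01) and late against early in progenitors (-0.14), and at day 60 in equal lists (0.00). Equal lists tested 14 members and 20 kb windows 39. For late against early neurons the share of all features called was 5.06% with the gene alone and 4.34% with the total after the log. It was 6.33% in equal lists and 4.56% at the stricter q. For the difference between the populations it was 0.985% with the gene alone. The HOX-to-genome ratio was 2.76 at the stricter q and 0.925 in equal lists. Called promoters were 0 under every alternative run.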
